A study of Mus musculus with 8 samples.

Results

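The genes described here are 33 genes of the endoplasmic reticulum (ER) folding machinery and of the integrated stress response, read in mouse liver. A gene was included when the platform annotation gave its symbol as the only gene of a probe set, and each gene was read by its probe set of highest mean log2 signal. All 33 had such a probe set, out of 18193 genes on the array, and 32 were bright enough to be tested. They form 4 sets of 14 chaperones and isomerases, 7 genes of ER-associated degradation, 8 genes of the ATF4 arm, and 3 sensor genes together with Xbp1. RNA was hybridized to 8 one-colour Affymetrix arrays, 2 in each of 4 groups. The groups were Sirt1-null (MT) mice of 3 months, and wild type (WT) mice of 3, 12 and 19 months, all on a mixed 129/FVB/Black Swiss background. MT mice carry a targeted deletion in Sirt1, which encodes a NAD-dependent deacetylase. The deletion is present in every tissue and most such embryos die before birth, so the MT livers came from the few animals that reach adulthood. Livers were collected in the morning. The study's methods give 2 samples a condition, whereas its results and a figure legend speak of more mice a group. No source used here ties arrays to single mice. Accordingly p-values reflect spread among these arrays alone, part of which can be technical.

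Proteins that enter the secretory pathway fold in the ER lumen with the help of chaperones, glycan-binding lectins and disulfide isomerases. When unfolded protein builds up, sensors in the ER membrane start the unfolded protein response. ATF6 is cut in the Golgi to release a transcription factor, IRE1 splices the Xbp1 mRNA into the form that encodes an active factor, and PERK phosphorylates the translation factor eIF2alpha. ATF6 and XBP1 raise chaperone and degradation genes, whereas eIF2alpha phosphorylation favours translation of ATF4, which drives genes of amino acid supply, redox balance and cell death. Other kinases converge on eIF2alpha as well, for which this branch is named the integrated stress response. The liver makes most plasma proteins, and its ER load is high.

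The DNA elements read by each branch lay largely in different sets. The chaperone and ATF4 sets were drawn up as known targets of these branches, so this split describes the sets and tests nothing. The ER stress element, bound by ATF6 together with NF-Y, is CCAAT, any 9 bases, and CCACG. The C/EBP-ATF element, bound by ATF4, is TGATG, any base, and AA. Both were searched on both strands from 250 bases before to 50 bases after each gene's start (RefSeq, GRCm38.p6). Promoter windows were found for 29 members, and Hyou1, Manf, Derl1 and Atf6 were not matched. The ER stress element occurred in 9 of the 29 members, 7 chaperone genes and 2 degradation genes, and in 0 of the 8 ATF4 arm genes, against 39 of 32851 promoters in all (0.119%). The C/EBP-ATF element occurred in 5 members, of which 4 are ATF4 arm genes (Asns, Atf3, Chac1 and Trib3) and the fifth is Herpud1, against 3.97% of all promoters. The motif CCACG, which lies inside the ER stress element and, on the other strand, inside the XBP1 element TGACGTGG, was in 23 members and in 32.8% of all promoters. The XBP1 element itself was in 0 of the 29 members and in 0.676% of promoters. A match describes the letters in the window and shows neither binding nor activity.

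The ER stress elements of the 9 genes are given here because Syvn1, the member whose signal passed the test described below, shares the element with 7 chaperone genes. Capitals mark the fixed bases, and each element is read 5′ to 3′ on the strand that holds it.
Hspa5: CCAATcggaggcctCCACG
Hsp90b1 element a: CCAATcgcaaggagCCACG
Hsp90b1 element b: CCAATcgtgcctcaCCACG
Creld2: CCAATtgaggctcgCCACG
Dnajc3: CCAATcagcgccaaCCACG
Calr: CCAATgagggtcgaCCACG
Canx: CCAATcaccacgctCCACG
Pdia6: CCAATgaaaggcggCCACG
Syvn1: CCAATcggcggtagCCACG
Derl3: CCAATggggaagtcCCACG

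The promoters of 5 genes are printed to set genes with the same element and different signals side by side. Each holds the 250 bases before the start, 5′ to 3′ on the gene's strand in GRCm38.p6, with the element in capitals. Syvn1 (chr19:6046326-6046575, plus strand), Creld2 (chr15:88819396-88819645, plus strand) and Pdia6 (chr12:17266339-17266588, plus strand) carry the ER stress element, in Creld2 on the opposite strand. Asns (chr6:7693210-7693459, minus strand) and Chac1 (chr2:119350992-119351241, plus strand) carry the C/EBP-ATF element, in Chac1 on the opposite strand.
Syvn1: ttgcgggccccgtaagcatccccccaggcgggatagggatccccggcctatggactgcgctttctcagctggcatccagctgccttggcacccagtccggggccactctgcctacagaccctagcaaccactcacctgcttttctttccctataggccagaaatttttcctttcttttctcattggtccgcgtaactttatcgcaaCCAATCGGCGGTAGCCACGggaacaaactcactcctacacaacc
Creld2: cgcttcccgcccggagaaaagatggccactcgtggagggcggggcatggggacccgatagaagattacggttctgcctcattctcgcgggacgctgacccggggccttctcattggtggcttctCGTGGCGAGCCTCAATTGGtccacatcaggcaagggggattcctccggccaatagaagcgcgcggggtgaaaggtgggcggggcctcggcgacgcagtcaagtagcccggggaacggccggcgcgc
Pdia6: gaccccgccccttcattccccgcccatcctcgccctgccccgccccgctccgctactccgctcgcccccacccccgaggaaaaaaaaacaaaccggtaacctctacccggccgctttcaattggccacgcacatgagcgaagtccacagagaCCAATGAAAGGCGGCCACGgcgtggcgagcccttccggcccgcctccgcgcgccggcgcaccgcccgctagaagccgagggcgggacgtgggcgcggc
Asns: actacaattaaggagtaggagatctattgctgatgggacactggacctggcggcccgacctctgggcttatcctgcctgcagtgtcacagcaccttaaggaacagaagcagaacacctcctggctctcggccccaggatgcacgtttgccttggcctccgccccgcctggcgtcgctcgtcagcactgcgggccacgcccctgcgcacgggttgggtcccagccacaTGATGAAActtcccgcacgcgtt
Chac1: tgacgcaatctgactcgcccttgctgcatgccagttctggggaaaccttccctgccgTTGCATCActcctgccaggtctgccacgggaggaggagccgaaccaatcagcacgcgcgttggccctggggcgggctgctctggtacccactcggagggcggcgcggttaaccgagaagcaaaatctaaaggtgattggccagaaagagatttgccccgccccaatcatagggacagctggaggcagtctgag

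The deposited values are MAS5 signals on a linear scale, in arbitrary units, scaled by the authors to a common trimmed mean. They rank arrays for one probe set and say nothing of one gene's level against another's. Array medians lay between 74.7 and 83.1, and log2 signals of 45037 probe sets correlated at 0.913 to 0.927 within groups and 0.909 to 0.922 between groups. Hepatocyte markers were bright on all arrays, with summed signals of 9 genes of 451060 to 471967 in MT mice, 420225 to 440065 in WT mice of 3 months, 406156 to 456218 at 12 months and 360609 to 389172 at 19 months. Sirt1 itself was read by 1 tested probe set, at 615 and 713 in MT mice and 589 and 539 in WT mice of 3 months (log2 difference 0.23 ± 0.20, limma adjusted p = 0.674). Where that probe set lies relative to the deleted exons is given in no source used here, so its signal does not check the genotype. In whole liver, fewer cells of a type and less RNA per cell cannot be told apart.

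Setting MT against WT mice of 3 months asks how liver transcripts differ when Sirt1 is lost. Syvn1, which encodes the ER membrane ubiquitin ligase HRD1, rose 1.75-fold in MT livers and was the 1 member of 32 to pass, against 0.702% of 10976 genes tested. Among chaperones, Creld2, Manf, Dnajb9 and Hspa5 gave higher signals on both MT arrays than on both WT arrays, with differences of 3.62-, 2.60-, 2.0- and 1.79-fold that did not pass. In the ATF4 arm the differences ran the other way for Asns, Chac1 and Trib3, at 2.41-, 2.32- and 2.18-fold lower, and none of them passed. Several major chaperone genes, among them Hsp90b1, Pdia3 and Pdia4, gave overlapping signals in both genotypes. For Calr this held for the brightest probe set but not for the dimmer ones.

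Syvn1 had signals of 2881 and 3099 on the MT arrays, against 1758 and 1653 on the WT arrays of 3 months. The MT pair lay above the WT pair with a wide gap and a small spread within pairs. The log2 difference was 0.81 ± 0.14 (SE, n = 2 arrays a group, limma adjusted p = 0.0421). HRD1 tags misfolded proteins that are drawn out of the ER lumen, so that the proteasome can degrade them. A second, dimmer probe set of Syvn1 read 1196 and 1326 in MT mice and 941 and 852 in WT mice, a log2 difference of 0.49 that did not pass (adjusted p = 0.201). The call of the brighter probe set was lost without either MT array, either WT array of 3 months or either WT array of 19 months, with an adjusted p of up to 0.273, and was kept without either array of 12 months. Without either array of 12 months Hspa5, Manf, Creld2 and Dnajb9 passed as well, and the share of all genes that then passed was not counted.

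**Figure D1:**
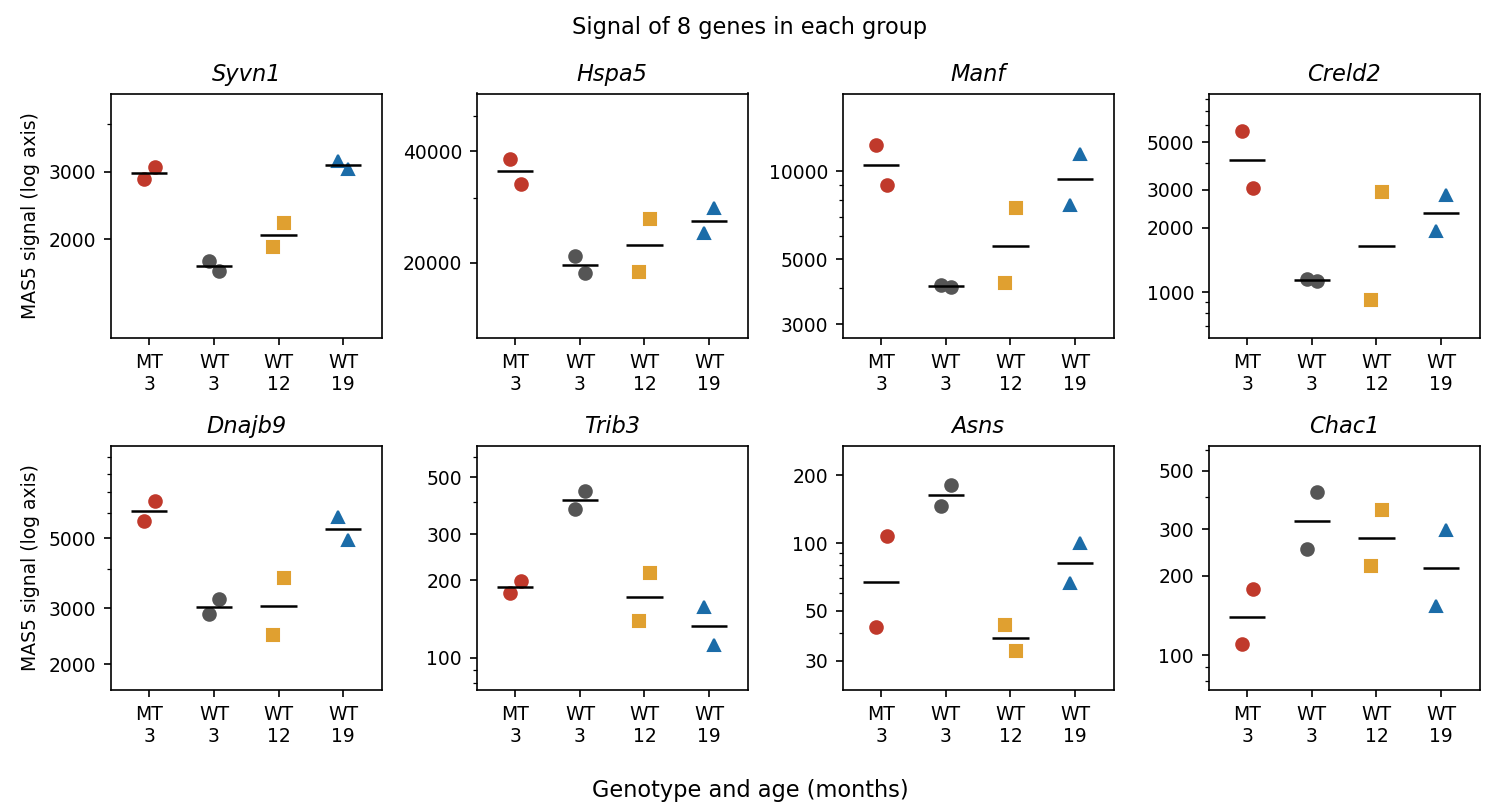
MAS5 signal (log axis) of 8 genes, with a point for each array of MT mice of 3 months and of WT mice of 3, 12 and 19 months, with a dash at each pair's geometric mean. For Syvn1, Hspa5, Manf, Creld2 and Dnajb9 both MT arrays lie above both WT arrays of 3 months, and for Trib3, Asns and Chac1 both lie below them.

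Hspa5 encodes BiP, the main ER chaperone of the Hsp70 family, which also holds the sensors inactive when it is free. Its signals were 38243 and 32737 in MT mice, against 20827 and 18776 in WT mice of 3 months, and the groups did not overlap. The log2 difference was 0.84 ± 0.17 (limma adjusted p = 0.0683). Another probe set of Hspa5 differed by 0.96 (adjusted p = 0.0750) and a much dimmer one by 0.39 (adjusted p = 0.370), so all 3 ran the same way and none passed.

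Manf encodes a small ER protein that is released under stress and associates with BiP. It read 12294 and 9003 in MT mice and 4069 and 4026 in WT mice, a log2 difference of 1.38 ± 0.28 (limma adjusted p = 0.0705). Both MT signals were more than 2-fold above the WT pair, which differed by little. Creld2, a stress-induced ER protein that can be secreted, read 5627 and 3070 in MT mice and 1161 and 1135 in WT mice. Its log2 difference of 1.86 ± 0.47 was the largest among members in this comparison, but the MT arrays differed from each other 1.83-fold, and the adjusted p was 0.125. Dnajb9 (ERdj4), a J-protein that brings BiP to IRE1 and to misfolded clients, read 5666 and 6532 in MT mice and 2877 and 3217 in WT mice, a difference of 1.0 ± 0.20 (limma adjusted p = 0.0654).

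Dnajb11 (ERdj3), a soluble J-protein that hands clients to BiP, read 2597 and 1926 in MT mice and 1531 and 1630 in WT mice. Its difference of 0.50 ± 0.21 was below the others and did not pass (limma adjusted p = 0.353). Sdf2l1, a partner of ERdj3, read 2686 and 1275 in MT mice and 1338 and 1131 in WT mice, so that the second MT array lay between both WT arrays. Hyou1 (GRP170), which exchanges the nucleotide of BiP, likewise overlapped, at 4462 and 2769 in MT mice and 2833 and 2074 in WT mice.

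The lectins and disulfide isomerases did not share these differences. Calr and Canx encode calreticulin and calnexin, which hold newly made glycoproteins, and differed by -0.12 and -0.32 on the log2 scale. The Calr pairs overlapped. Its dimmer probe sets differed by -0.33 and -0.35, lower on both MT arrays without passing (limma adjusted p = 0.40 and 0.41). Canx read 12803 and 11699 in MT mice, both below the WT signals of 15382 and 15152, without passing (limma adjusted p = 0.373). The disulfide isomerases Pdia3, Pdia4 and Pdia6 differed by -0.07, 0.09 and -0.39. Pdia6 read 2765 and 2017 in MT mice and 3315 and 2902 in WT mice, again lower on both MT arrays and without passing (adjusted p = 0.547). Its second, dimmer probe set ran the other way, at 106 and 141 in MT mice and 45.2 and 70.2 in WT mice (difference 1.12, adjusted p = 0.291). Its promoter, like those of Calr and Canx, carries the ER stress element found in Hspa5, Creld2 and Syvn1. Hsp90b1 (GRP94), the ER member of the Hsp90 family, differed by 0.13 and carries 2 such elements, and Dnajc3 (p58IPK), an inhibitor of PERK, differed by 0.06.

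Over the 14 chaperone genes, 10 were above 0 and the median log2 difference was 0.31, against 0.0045 over 10976 genes tested. An unadjusted p under 0.05 was reached by 5 higher genes (Hspa5, Manf, Creld2, Dnajb9 and Dnajb11) and 0 lower ones, against 7.75% and 7.41% of all genes. The median rested on the first MT array: it was 0.03 without it, 0.57 without the second MT array and 0.19 without the second WT array of 3 months.

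Genes of ER-associated degradation (ERAD) other than Syvn1 gave smaller differences. Herpud1, a scaffold of the HRD1 complex, read 11838 and 14929 in MT mice and 9300 and 10566 in WT mice, a difference of 0.42 ± 0.41. Derl1, a derlin that helps to move proteins out of the ER, read 4849 and 6601 in MT mice and 3751 and 4839 in WT mice, a difference of 0.41 ± 0.20 (limma adjusted p = 0.418). For both, the MT pair lay above the WT pair, for Derl1 by a narrow margin. Sel1l, the adaptor that stabilizes HRD1, and Edem1, which marks glycoproteins for removal by trimming mannose, differed by 0.20 and 0.26, and the derlin Derl2 by -0.02. Derl3, a stress-induced derlin, differed by 0.40 with the widest spread of the set, at 395 and 161 in MT mice and 189 and 192 in WT mice. The median of the 7 was 0.40, with 6 above 0. On the first MT array alone the median difference from WT was 0.39, and on the second it was 0.07.

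In the ATF4 arm 6 of the 7 tested genes were below 0 in MT mice, and Ddit3 was above. Atf4 itself read 2607 and 3145 in MT mice and 2862 and 2987 in WT mice, so that the WT signals lay inside the MT range (log2 difference -0.03 ± 0.15). Control of ATF4 is largely through translation, which an array does not read. Ddit3, which encodes the pro-apoptotic factor CHOP, read 566 and 792 in MT mice and 476 and 450.0 in WT mice. Both MT arrays were higher, by 0.53 ± 0.22, without passing (limma adjusted p = 0.329).

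Trib3, a pseudokinase that is induced by ATF4 and CHOP and feeds back on them, read 178 and 198 in MT mice and 377 and 441 in WT mice. The pairs were far apart, with a difference of -1.12 ± 0.28 that did not pass (limma adjusted p = 0.121). Its second probe set gave -1.24 (adjusted p = 0.305). Asns, the gene of asparagine synthetase, read 42.3 and 108 in MT mice and 147 and 180 in WT mice, a difference of -1.27 ± 0.50 (adjusted p = 0.307), and the lower MT signal was under the array median. Chac1, an enzyme that breaks down glutathione, read 110.2 and 178 in MT mice and 253 and 416 in WT mice, a difference of -1.21 ± 0.41 (adjusted p = 0.237). These 3 genes were the members with an unadjusted p under 0.05 and a negative difference. Each has a C/EBP-ATF element in the window. Of the other members with that element, Herpud1 was higher on both MT arrays (difference 0.42) and Atf3 was not tested.

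Sesn2, a stress-induced regulator of mTORC1, differed by -0.40 with overlapping pairs, and Ppp1r15a (GADD34), which reverses eIF2alpha phosphorylation, by -0.28. Atf3, a factor induced downstream of ATF4, was too dim to be tested, at 61.0 and 177 in MT mice and 97.5 and 35.6 in WT mice. The median over the 7 tested genes of the arm was -0.40. An unadjusted p under 0.05 was reached by Trib3, Asns and Chac1 among the lower genes and by Ddit3 among the higher. The median was -0.19 without the first MT array and -0.74 without the second, and -0.09 when all probe sets of each gene were averaged. Atf3 and Ppp1r15a also respond to handling and to growth factors within minutes, as immediate early genes do. The summed signal of 14 immediate early genes was 9850 to 16724 in MT mice and 22798 to 23181 in WT mice of 3 months, and its part in the ATF4 arm was not tested. Of the 12 immediate early genes tested singly, 9 were below 0 and 3 above, and 0 were called.

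Of the sensors, Atf6 read 1162 and 884 in MT mice and 827 and 640 in WT mice, a difference of 0.48 ± 0.20 with separate pairs (limma adjusted p = 0.338). Xbp1 read 12026 and 11434.5 in MT mice and 7884 and 10024 in WT mice, higher on both MT arrays by 0.40 ± 0.18 without passing (adjusted p = 0.387). The probe sets do not tell spliced from unspliced Xbp1 mRNA in these data. Ern1, which encodes IRE1, and Eif2ak3, which encodes PERK, differed by -0.16 and 0.07 with overlapping pairs.

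**Figure D2:**
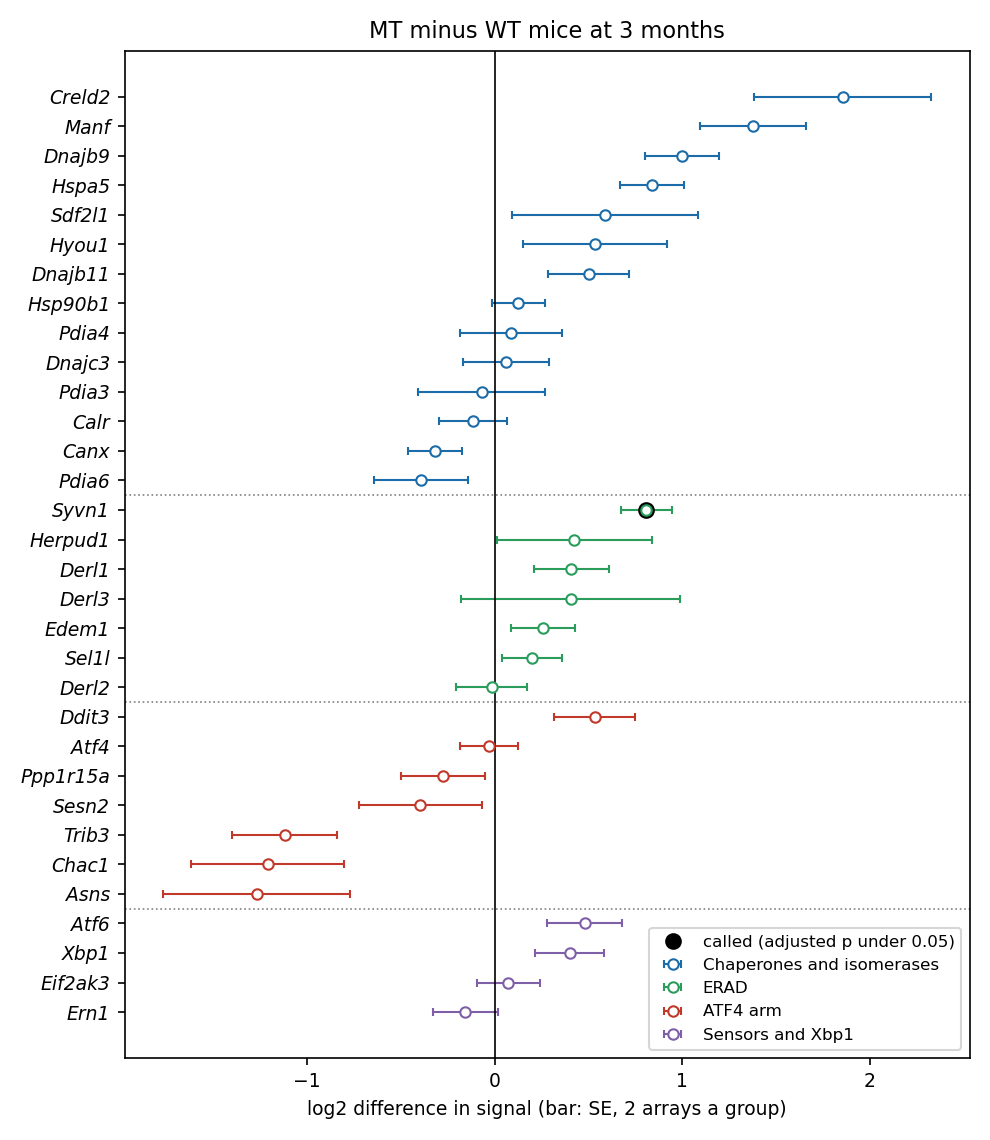
Log2 difference in signal, MT minus WT mice of 3 months, for the 32 tested members in 4 sets, with bars for the SE (2 arrays a group). Syvn1 is the called member (0.81), Creld2 (1.86) lies highest among chaperones, and Asns (-1.27), Chac1 (-1.21) and Trib3 (-1.12) lie lowest in the ATF4 arm.

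At an unadjusted p under 0.05 there were 8 higher among the 32 tested members, against 7.75% of genes, and 3 lower, against 7.41%. Of 35 further probe sets of 21 members, 28 had the same sign as the one used and 0 were called. Those of opposite sign belonged to Dnajc3, Pdia6, Sel1l, Edem1, Derl1, Derl2 and Sesn2.

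A wider list of ER genes had a median nearer 0. Of 51 tested genes 36 were above 0 with a median of 0.08. Of the 51, 7 were higher at an unadjusted p under 0.05 (7.75% of all genes), 0 were lower (7.41%), and 0 were called (0.702%). By the size of their moderated statistic the leading genes were Ero1a, the oxidase that supplies disulfide bonds, and Txndc5, a disulfide isomerase. Ero1a read 852 and 842 in MT mice and 477 and 435 in WT mice, a difference of 0.89 (limma adjusted p = 0.0643). Txndc5 read 5809 and 4479 in MT mice and 3213 and 3143 in WT mice, a difference of 0.68 (adjusted p = 0.0853). Txndc11, a thioredoxin-domain protein, and Wfs1, the ER membrane protein wolframin, followed at 0.87 (adjusted p = 0.156) and 0.91 (adjusted p = 0.207).

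In a wider list of ATF4-linked genes, 36 tested genes had a median of 0.10, with 7 higher, 3 lower and 0 called by the same measures. Cdkn1a, the cell cycle inhibitor p21, read 123 and 142 in MT mice and 770 and 371 in WT mice, a difference of -2.01 (limma adjusted p = 0.0957). These signals are RNA, whereas the study's Western blots gave much higher p21 protein in MT than in WT livers at 3 months. Slc6a9, a glycine transporter, differed by -0.67 (adjusted p = 0.163). The tRNA synthetase genes Aars and Wars, which ATF4 can raise, differed by 0.70 (adjusted p = 0.166) and 0.75 (adjusted p = 0.170), opposite in sign to Trib3, Asns and Chac1.

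Plasma cells and the exocrine pancreas are rich in ER proteins. Plasma and B cell markers, of which 9 of 11 had a probe set, summed to 1344 to 1956 in MT mice and 1295 to 1642 in WT mice of 3 months, ranges that overlap, with Cd79a, Pou2af1 and Tnfrsf17 below the array median on all arrays. Of the 6 tested, 3 were above 0 and 3 below, with a median of 0.03, and none passed. The antibody heavy chain genes Igha and Ighm lay at the ends, at 0.95 (limma adjusted p = 0.0757) and -0.54 (adjusted p = 0.738). Pancreas markers, 12 of 15 with a probe set, summed to 2320 to 2441 in MT mice and 4684 to 5237 in WT mice, with 8 of the 12 below the array median throughout. Most of each sum was Cela1, an elastase gene, at 1974 and 1841 in MT mice and 4712 and 3993 in WT mice. Kupffer cell markers (7 of 7) summed to 8271 to 9986 in MT mice and 10716 to 11910 in WT mice. Neutrophil markers (5 of 5, with Camp and Ltf below the median) summed to 1063 to 1369 in MT mice and 751 to 790 in WT mice, and their part in these differences was not tested. The 3′ minus 5′ log2 signal of the pyruvate carboxylase control, which tracks RNA integrity and labelling, was 3.88 and 3.93 in MT mice and 4.25 and 3.88 in WT mice. That of beta-actin was 0.97 and 1.48 in MT mice and 1.22 and 1.09 in WT mice, and that of Gapdh -0.62 and -0.38 in MT mice and -0.59 and -0.51 in WT mice.

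The WT groups ask what ageing does to the same transcripts. Both later ages were set against the 3-month arrays that also served the MT mice, so these differences share arrays and are given side by side only. No member passed at 12 or at 19 months, against 0.00911% and 0.0364% of genes. At 19 months Syvn1, Manf and Dnajb9 were higher on both arrays than at 3 months, by 1.84-, 2.32- and 1.76-fold, and Trib3 was lower by 3.06-fold. At 12 months the chaperones were near their level of 3 months on average, with one array low and one high, and Trib3 and Asns were the members with the largest differences.

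At an unadjusted p under 0.05 there were 0 members higher at 12 months, against 4.64% of genes, and 2 lower, against 4.38%. Both were ATF4 targets. Trib3 read 139 and 213 at 12 months, against 377 and 441 at 3 months, a log2 difference of -1.25 ± 0.28 (limma adjusted p = 0.258). Asns read 43.2 and 33.3 at 12 months, below the array median on both arrays, against 147 and 180 at 3 months, at least 2.09-fold lower (adjusted p = 0.280). The bound takes the array median as the level at 12 months.

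Chac1 did not follow them, at 217 and 357 at 12 months and 253 and 416 at 3 months. Atf4 read 2610 and 2165 at 12 months and 2862 and 2987 at 3 months, a difference of -0.30 ± 0.15, and Ddit3 differed by -0.27, without passing. The chaperone set had a median of -0.01 and the ERAD set of 0.13, against 0.01 over all genes. Creld2 read 917 and 2945 at 12 months and 1161 and 1135 at 3 months, so that both 3-month signals lay between the 12-month ones. Manf read 4143 and 7473 at 12 months, a difference of 0.46 from 3 months (limma adjusted p = 0.706). Hspa5 read 18897 and 26329.9 and differed by 0.17, and Syvn1 read 1911 and 2203, higher on both arrays by 0.27 (adjusted p = 0.635). Over the tested members other than Asns the differences ran from -1.25 (Trib3) to 0.53 (Derl3), and 13 were above 0.

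At an unadjusted p under 0.05 there were 6 members higher at 19 months (Hspa5, Manf, Dnajb9, Syvn1, Eif2ak3 and Xbp1), against 7.28% of genes, and 1 lower (Trib3), against 6.05%. Syvn1 read 3205 and 3058 at 19 months, against 1758 and 1653 at 3 months, a log2 difference of 0.88 ± 0.14 (limma adjusted p = 0.0828). Before adjustment its p was 0.000105, against 0.000194 in the comparison of MT mice. Manf read 7686 and 11479 at 19 months, a difference of 1.21 ± 0.28 (adjusted p = 0.190), and Dnajb9 read 5831 and 4931, a difference of 0.82 ± 0.20 (adjusted p = 0.202). Hspa5, at 24117 and 28115, differed by 0.40 ± 0.17 (adjusted p = 0.386), and Creld2, at 1932 and 2831, by 1.03 ± 0.47 (adjusted p = 0.420). Dnajb11 read 1787 and 2520 and differed by 0.43 (adjusted p = 0.469). In Syvn1, Manf, Dnajb9, Hspa5, Creld2 and Dnajb11 both arrays of 19 months were above both of 3 months by the probe set used. Other members were separated in this way too, and the share of all genes so separated was not counted. The other probe sets of Hspa5 disagreed. One differed by 0.73 (limma adjusted p = 0.238). The dimmest differed by -0.14 (adjusted p = 0.8015), at 897 and 905 at 19 months against 929 and 1054 at 3 months.

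Hyou1 ran the other way, at 1311 and 2744 at 19 months against 2833 and 2074 at 3 months, with overlapping pairs. Canx differed by -0.23, Calr by 0.0034, and Pdia3, Pdia4 and Pdia6 by 0.30, 0.42 and 0.26. Over the 14 chaperone genes 12 were above 0, with a median of 0.35, against 0.02 over all genes. That median was 0.61 without the first array of 19 months and 0.18 without the second. In the ERAD set the median was 0.11, and Herpud1 (-0.05), Derl1 (-0.0036) and Edem1 (0.09) were near 0.

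Trib3 read 158 and 112 at 19 months, against 377 and 441 at 3 months, a difference of -1.62 ± 0.28 (limma adjusted p = 0.0960). Its signals at 12 and 19 months, and those of the MT mice, all lay below both WT arrays of 3 months, which therefore stand apart from the 6 other arrays for this gene. The same held for Asns, at 66.3 and 100.2 at 19 months (difference -0.996 ± 0.50, adjusted p = 0.465), where the lower signal was under the array median. Sesn2 differed by -0.59 and Chac1 by -0.60, whereas Atf4 (0.15), Ddit3 (0.37) and Ppp1r15a (0.27) were above 0. Dimmer probe sets turned the sign for Sesn2 (1.68, limma adjusted p = 0.432) and Ddit3 (-0.06), and kept it for Atf4 (0.35) and Trib3 (-1.46). The median of the ATF4 arm was -0.59 and rested on the choice of probe set: it was 0.13 with all probe sets of a gene averaged, -0.24 without the filter on dim probe sets, which adds Atf3, -0.12 without either array of 19 months and -0.24 without the second of 3 months.

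Among sensors, Eif2ak3 read 678 and 657 at 19 months and 528 and 475 at 3 months, a difference of 0.41 ± 0.17 (limma adjusted p = 0.368). Xbp1 read 11700 and 13071 at 19 months and 7884 and 10024 at 3 months, a difference of 0.48 ± 0.18 (adjusted p = 0.350). The Xbp1 probe sets next in brightness gave 0.76 and 0.69 (adjusted p = 0.247 for each), and the dimmest gave -0.11. Atf6 differed by 0.37, with dimmer probe sets at 0.17 and -0.42, and Ern1 by -0.20. Of the 35 further probe sets of members, 22 had the same sign as the one used at 12 months and 24 at 19 months.

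**Figure D3:**
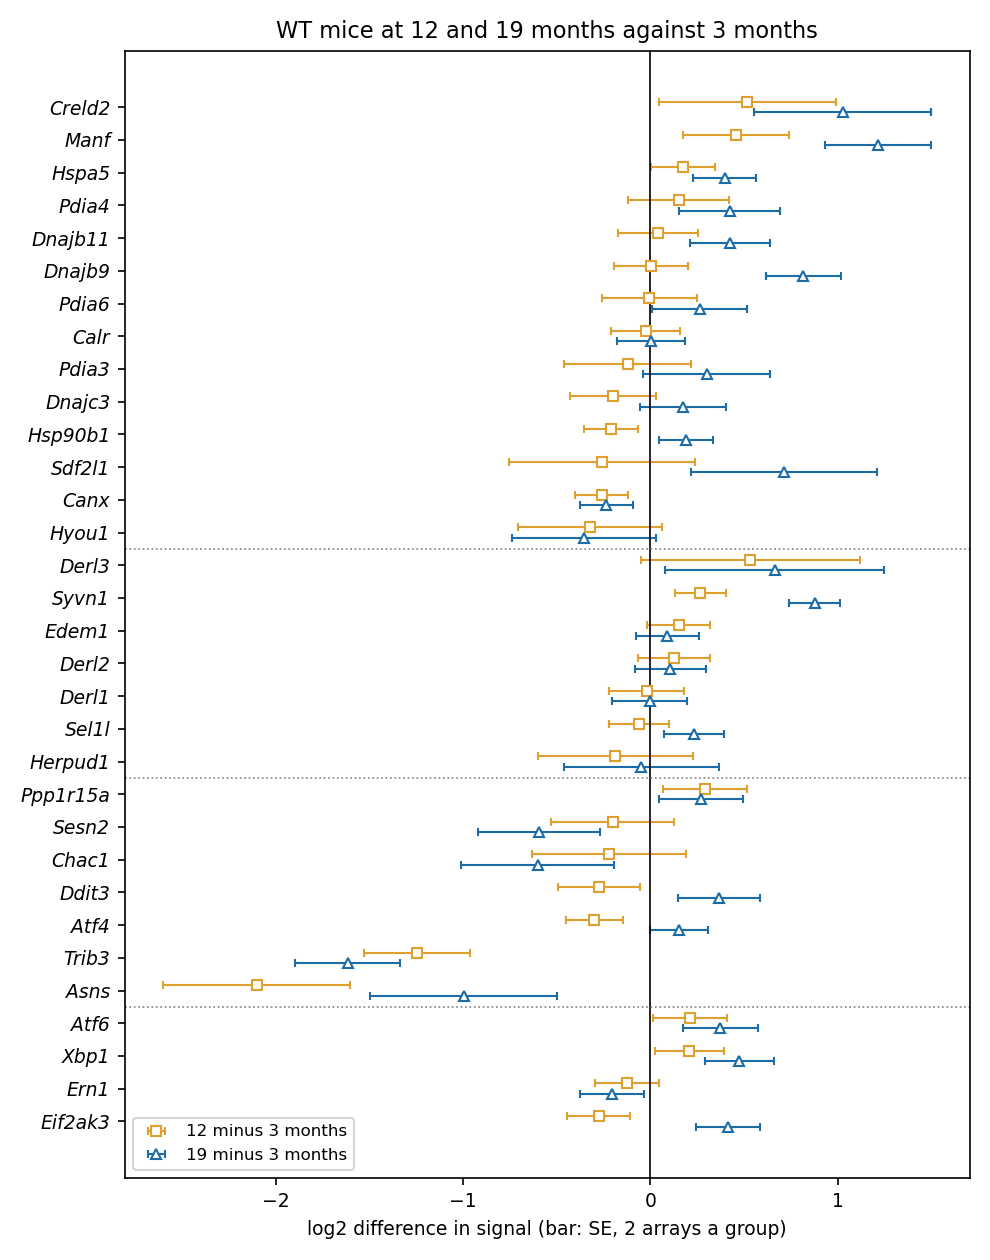
Log2 difference in signal of WT mice of 12 months (squares) and of 19 months (triangles) from WT mice of 3 months, for the 32 tested members in 4 sets, with bars for the SE (2 arrays a group). At 19 months Manf (1.21), Creld2 (1.03) and Syvn1 (0.88) lie to the right, and at both ages Trib3 (-1.25 and -1.62) lies to the left. Asns at 12 months, for which only a bound holds, is drawn at its fitted value.

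Set against 12 months, 0 members were called at 19 months, and 0.0% of genes were. At an unadjusted p under 0.05 there were 7 higher (Hsp90b1, Manf, Dnajb9, Syvn1, Atf4, Ddit3 and Eif2ak3), against 5.80% of genes, and 0 lower, against 5.31%. Dnajb9 read 5831 and 4931 at 19 months and 2479 and 3743 at 12 months (log2 difference 0.82, limma adjusted p = 0.235). Eif2ak3 read 678 and 657 at 19 months and 440 and 389 at 12 months (0.69, adjusted p = 0.240). The chaperone median was 0.38, with 13 of 14 above 0, and was 0.04 without the first array of 12 months and 0.12 without the second of 19 months.

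Wider lists again had medians near 0. The 51 ER genes had a median of 0.05 at 12 months and 0.06 at 19 months, and the 36 ATF4-linked genes had 0.0011 and 0.07, with 0 called at either age. At 12 months 1 ER gene was higher and 1 lower by an unadjusted p under 0.05 (4.64% and 4.38% of all genes), and at 19 months 5 were higher and 0 lower (7.28% and 6.05%). Ero1a read 754 and 622 at 19 months and 477 and 435 at 3 months (difference 0.59, limma adjusted p = 0.261), and Txndc5 read 4550 and 4262 at 19 months and 3213 and 3143 at 3 months (0.47, adjusted p = 0.283). Among ATF4-linked genes 3 were higher and 0 lower at 12 months, and 5 were higher and 2 lower at 19 months, against the same shares. Ppp1r15b, the constitutive partner of the eIF2alpha phosphatase, differed by 0.53 at 12 months (adjusted p = 0.332) and by 0.57 at 19 months (adjusted p = 0.192). Aars differed by 0.69 at 19 months and Cars, another tRNA synthetase gene, by 0.62, without passing, and Shmt2, a mitochondrial serine enzyme, by -0.50 (adjusted p = 0.273).

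Cell type markers differed by age beside these genes. Plasma and B cell markers summed to 1295 to 1642 at 3 months, 4036 to 5135 at 12 months and 7981 to 8728 at 19 months, and Igha was called at both later ages (log2 differences of 2.49 and 3.34, limma adjusted p = 0.00902 and 0.000650). The antibody genes Jchain (1.95 and 2.74) and Ighm (1.65 and 2.74) also rose, without passing. Of the 6 tested, 4 were above 0 at 12 months and 6 at 19 months. Mzb1 was at 0.13 at 12 months, and Cd79b (-0.35) and Ms4a1 (-0.37) were below 0. Cd79a, Pou2af1 and Tnfrsf17 were below the array median on all arrays. Plasma cells express Manf, Hspa5, Dnajb9, Xbp1 and Syvn1 at high levels, and the part of these cells in the signals at 19 months was not tested. Kupffer cell markers summed to 10716 to 11910 at 3 months, 9582 to 10597 at 12 months and 13512 to 23603 at 19 months, and neutrophil markers to 751 to 790, 839 to 1032 and 1560 to 1936. Pancreas markers summed to 4684 to 5237, 3039 to 4352 and 1945 to 2205. Immediate early genes summed to 22798 to 23181 at 3 months, 6852 to 15352 at 12 months and 11977 to 25849 at 19 months. The pyruvate carboxylase control gave 3′ minus 5′ log2 signals of 3.88 to 4.25 at 3 months, 4.54 to 5.10 at 12 months and 4.77 to 5.86 at 19 months. For beta-actin they were 1.09 to 1.22, 1.26 to 1.31 and 1.23 to 1.25, and for Gapdh -0.59 to -0.51, -0.46 to -0.34 and -0.44 to -0.39. None of these was tested for its part in the differences by age.

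**Figure D4:**
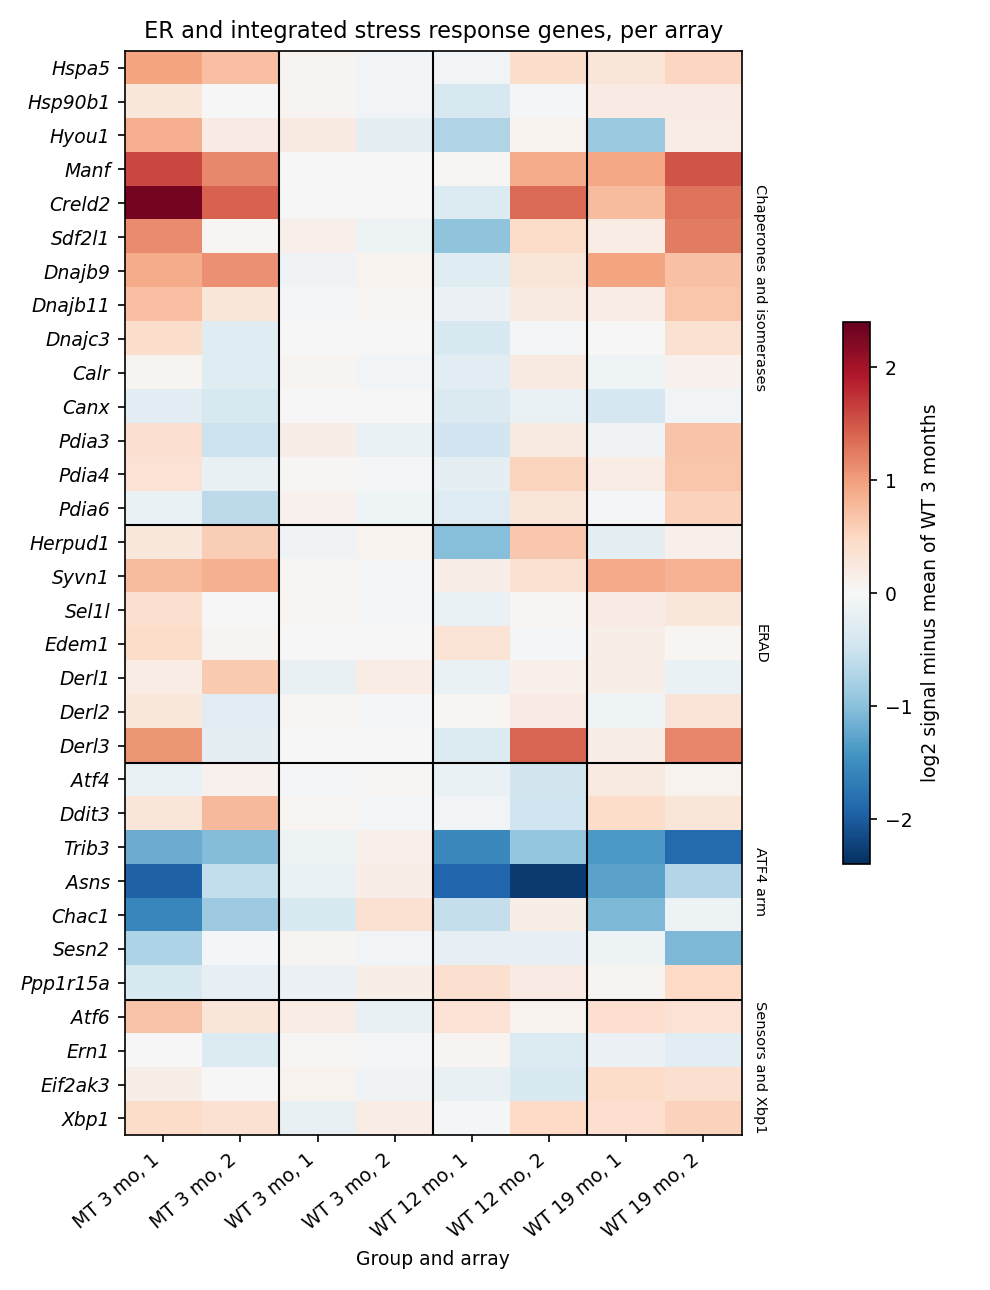
Log2 signal of the 32 tested members on each of the 8 arrays, minus the mean of both WT arrays of 3 months, with red for higher and blue for lower. Creld2 is reddest on the MT arrays, Trib3 and Asns are blue on all arrays but those of WT mice of 3 months, and the chaperone rows differ between both arrays of 12 months.

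Chaperones of a group tended to differ between its arrays in the same direction. On the first MT array 13 of 14 chaperone signals were above those of the second, by a median of 0.45 on the log2 scale. At 12 months all 14 were lower on the first array, by a median of 0.60 in size, and at 19 months 12 of 14 were lower on the first array, with a median of -0.49. In WT mice of 3 months 12 of 14 were higher on the first array, but by a median of only 0.08. Over all 10976 genes the same medians were -0.03 for MT mice, 0.02 for WT mice of 3 months, 0.01 at 12 months and 0.0041 at 19 months.

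The largest gaps at 12 months were those of Derl3 (3.33-fold), Creld2 (3.21-fold), Herpud1 (3.15-fold) and Sdf2l1 (2.64-fold). Herpud1 read 4906 on the first array and 15455 on the second, which were the lowest and the highest of its 8 signals. Sdf2l1 read 634 and 1673 at 12 months, and 1399 and 2905 at 19 months. In MT mice the widest gaps were 2.55-fold for Asns, 2.45-fold for Derl3, 2.11-fold for Sdf2l1 and 1.88-fold for Pdia3. Syvn1 was among the steadier genes, with gaps of 1.08-fold in MT mice, 1.06-fold at 3 months, 1.15-fold at 12 months and 1.05-fold at 19 months.

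The ATF4 arm did not share the direction of the chaperones within pairs. In MT mice all 7 tested genes of the arm were lower on the first array, by a median of 0.48 in size, where the chaperones were higher. At 12 and 19 months 4 of the 7 were higher on the first array, with medians of 0.19 and 0.13. With 2 arrays a group, the smallest p that an exact permutation test of 1 gene allows is 0.333, and none was run.

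**Figure D5:**
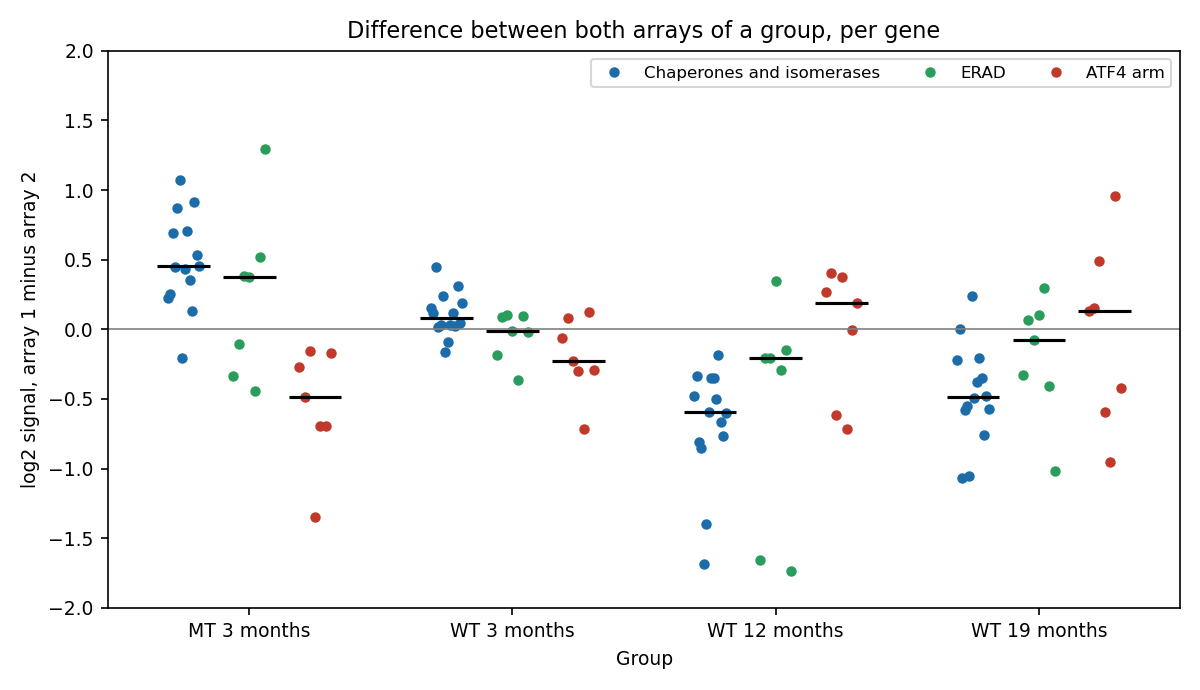
Log2 signal of array 1 minus array 2 of each group, with a point for each tested gene of the chaperone, ERAD and ATF4 sets and a line at the median. Chaperones lie above 0 in MT mice (median 0.45), near 0 in WT mice of 3 months (0.08) and below 0 at 12 months (-0.60) and 19 months (-0.49).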

How the data were processed

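Liver RNA was read on 8 Affymetrix arrays, 2 in each of 4 groups, with genotype and age taken from the labels. The deposited intensity values are linear MAS5 signals, which the authors scaled to a common trimmed mean. Scanner files and detection calls were not used here, no source used here names the MAS5 version, and the number of arrays limits the precision. From 45101 probe sets 64 controls were left out. Signals were floored at 1 and taken to log2. The brighter 50.0% of probe sets by mean (22519) were fitted with limma 3.58.1 in R 4.3.3 (lmFit, then eBayes with a variance trend), all 4 groups together and without covariates. P-values were adjusted by Benjamini-Hochberg over these probe sets and called under 0.05. Of the probe sets, 34945 had 1 gene symbol, 932 had several and 9160 had none, and only the first kind was named. Each gene was read by its probe set of highest mean, as was each of the 10976 genes of the background.

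All members were named. Of the wider ER and ATF4 lists, the 4 genes of largest absolute moderated statistic in each comparison could be named. Members, lists and rules were chosen with earlier results of these data known. Alternatives changed the normalization, the offset of the log, the filter, which groups entered the fit, the variance prior, the block, the test and the probe set, and left out each array in turn. The fitting script was tested on simulated data. Summaries and figures used Python 3.11.15 with numpy 2.4.6, pandas 2.3.3 and matplotlib 3.10.9.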

Additional observations from a re-analysis of the deposited data

Results flagged for a closer look

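In WT mice 3 members lay on opposite sides of the 3-month pair at both later ages. For Atf4, Ddit3 and Eif2ak3, by the probe set used, both arrays of 19 months were above and both of 12 months below both of 3 months. Trib3, Asns, Chac1, Sesn2 and Ppp1r15a of the ATF4 arm did not show this order. It was looked for among the members only, and the share of all genes that show it was not counted. A dimmer probe set of Atf4 kept this order, but that of Ddit3 did not. It read 159 and 174 at 19 months, 86.9 and 161.5 at 12 months and 189 and 160 at 3 months. The difference of 19 from 12 months was 0.45 for Atf4, 0.64 for Ddit3 and 0.69 for Eif2ak3 on the log2 scale. By limma these had adjusted p-values of 0.350, 0.350 and 0.240, so the difference was tested and did not pass. Groups of 2 arrays are too small for a check of single arrays that lie far from the rest.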

How the results depend on the processing

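With 2 arrays a group, the count of members called in MT mice was the result most open to the settings: it was 1 in the reported fit, 0 without a variance trend, 0 with the replicate number as a block, 4 with the MT and WT arrays of 3 months alone (Hspa5, Manf, Creld2 and Dnajb9), and 0 to 5 with 1 array left out. The methods' t-test with a fold over 1.5 called 5 members before adjustment and 0 after Benjamini-Hochberg. At 12 months that t-test called 1 member unadjusted, at 19 against 3 months 3, and at 19 against 12 months 2, and 0 in each after adjustment. With the 2 groups alone, 3 members were called at 19 months (Manf, Syvn1 and Trib3). Quantile normalization, an offset of 16 and no filter each kept 1 call in MT mice. The share of all genes called was counted for the reported fit only. Whether the counts of members under other settings exceed that of all genes is therefore not known.

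The ATF4 arm median in MT mice was -0.74 to -0.19 with 1 array left out and -0.090 with all probe sets of a gene averaged. At 19 months it was -0.59 to -0.12 with 1 array left out, -0.24 without the filter and, turned in sign, 0.13 with all probe sets averaged. The chaperone median at 19 against 12 months was 0.037 to 0.57 with 1 array left out.

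Members whose difference exceeded its SE and that turned sign, with a shift beyond that SE, when 1 array was left out were, at 12 months, Hspa5 (-0.066 to 0.41), Creld2 (-0.32 to 1.36) and Xbp1 (-0.052 to 0.47), and at 19 months Pdia6 (-0.022 to 0.55). At 19 against 12 months they were Hspa5 (-0.016 to 0.46), Creld2 (-0.33 to 1.35), Pdia4 (-0.11 to 0.65), Pdia6 (-0.032 to 0.57) and Sesn2 (-0.87 to 0.086). The cause was not tested. Counting any turn, however close to 0, at least 1 alternative turned the sign of 10 of 32 members in MT mice, 18 at 12 months, 8 at 19 months and 16 at 19 against 12 months, and 1712 of 1792 values of single members kept their direction. Of these 1792, 15 newly passed the threshold and 9 no longer passed.

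Same-numbered arrays deviated with correlations of -0.0331 to 0.1408, of which 1 of 6 was over 0.1 (WT mice of 12 and 19 months), so the replicate number was not taken to pair samples and the block was read as a setting only.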
